A study of Mus musculus with 4 samples.

Results

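Clade B serpins are intracellular relatives of the blood protease inhibitors. A serpin offers an exposed reactive loop to a serine or cysteine protease, and cleavage of the loop traps the enzyme in a covalent complex. Most clade B members lack a classical secretion signal and work in the cytoplasm and nucleus, where they guard cells against their own granule and lysosomal proteases. In mice the family has been enlarged by gene duplication, so that human SERPINB6, SERPINB9 and SERPINB1 each match several mouse paralogues. Mouse embryonic stem cells have been reported to use Serpinb9, an inhibitor of granzyme B, against killing by cytotoxic lymphocytes.

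The 8 clade B serpins described here are Serpinb6a, Serpinb6b, Serpinb6c, Serpinb1a, Serpinb5, Serpinb8, Serpinb9 and Serpinb9b. Their probe sets were all those that the annotation of the Affymetrix Mouse Genome 430 2.0 array assigns to 1 gene only, that gene being 1 of the 8. This gave 14 probe sets of 45101 on the array. They comprise 8 of the plain _at type, 2 of the _a_at type (transcript variants of 1 gene), 2 of the _s_at type (probes shared by several transcripts, which may come from related genes) and 2 of the _x_at type (some probes similar to other sequences). The 8 genes were chosen on the KO against cKO values of these arrays, which were known when the list was made, so their differences between KO and cKO are given as a description without a p-value, and their number of calls supports nothing.

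The arrays hold 2 UTX knockout embryonic stem cell lines (KO lines 1 and 2) and 2 UTX conditional knockout lines (cKO lines 1 and 2), with 1 array per line. UTX, the product of Kdm6a, is a histone H3 lysine 27 demethylase, and the series asks which genes it regulates. Both groups were kept on irradiated fibroblast feeders in medium with 15% serum and 1000 u/ml leukaemia inhibitory factor, then passaged 2 times on 0.1% gelatin to clear the feeders. The labels name no strain, no sex of the lines, no deleted exons and no Cre recombinase, and the cKO lines serve as the reference with their conditional alleles in place. The cKO lines are stated to be independent of each other, which is not said of the KO lines, and nothing says whether the RNA came from separate occasions. A p-value here sets a difference only against the scatter within groups of these 4 arrays, pooled in part over probe sets. That scatter may be technical.

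Values are MAS5 signals on a linear scale, and the number of arrays limits the precision of each. Every array had a trimmed mean signal of 500, while the median was 81.6 in KO line 1 and 64.9 in KO line 2, against 76.6 in cKO line 1 and 64.4 in cKO line 2. The targeted gene Kdm6a read 265 and 198 in the KO lines against 658 and 415 in the cKO lines on its brightest probe set (log2 difference -1.17, limma adjusted p = 0.125). A second Kdm6a probe set read 153 and 132 in KO against 382 and 267 in cKO (log2 difference -1.14, adjusted p = 0.104). Neither passed the threshold, but both did after centring each array on its median (-1.22 and -1.19) and with the line number as a block, and the brightest did without KO line 1 (-1.38) and without cKO line 2 (-1.50). Where these probes lie relative to the deletion was not analysed here. The 8 stem cell markers (Pou5f1, Nanog, Sox2 and others) all lay above the background level on all 4 arrays. Of 7 leukocyte markers, 5 lay under it throughout, among them Ptprc and Cd3e.

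As a gauge of background, 43 probe sets of 38 olfactory receptor genes, which these cells are not known to transcribe, were read on the same arrays. Their 95th percentile was 68.1 in KO line 1 and 32.3 in KO line 2, against 48.3 in cKO line 1 and 44.1 in cKO line 2. Of the 14 serpin probe sets, 3 exceeded it on all 4 arrays (Serpinb6a, Serpinb6c and Serpinb9b), 2 on some (1 each of Serpinb9 and Serpinb8) and 9 on none. For fits across the array, the 40% of probe sets with the lowest mean signal, below 41.8, were left out, and 4 serpin probe sets, 1 each for 4 genes, passed this filter. The filter lies between Serpinb9, with a mean signal of 69.4, and Serpinb6b, with 32.4. The 4 genes with no probe set above it are Serpinb6b, Serpinb1a, Serpinb5 and Serpinb8.

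Serpinb6c and Serpinb6a are neighbours on chromosome 13, with Serpinb6e on the far side of Serpinb6c. The 250 bases before an annotated start of each gene are shown because the signals of these 3 adjacent paralogues are described next. A link between sequence and signal was not tested. The sequences are from RefSeq (GRCm38.p6), where 7 of the 8 listed genes had such a window and Serpinb1a did not, and they are read on the minus strand, the strand of all 3 genes. Capitals mark matches, on either strand, to 7 short motifs, which are the TATA box (TATAAA), the CCAAT box (CCAAT), the GC box (GGGCGG), the AP-1 site (TGACTCA), the E-box (CACGTG), an extended nuclear receptor element (AAGGTCA) and an octamer core (ATGCAAA).
Serpinb6c, chr13:33905192-33905441: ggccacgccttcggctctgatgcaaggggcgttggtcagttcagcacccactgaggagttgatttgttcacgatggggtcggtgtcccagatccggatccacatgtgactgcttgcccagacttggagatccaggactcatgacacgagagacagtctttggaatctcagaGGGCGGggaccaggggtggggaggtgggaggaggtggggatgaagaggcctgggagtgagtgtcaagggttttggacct
Serpinb6a, chr13:34002795-34003044: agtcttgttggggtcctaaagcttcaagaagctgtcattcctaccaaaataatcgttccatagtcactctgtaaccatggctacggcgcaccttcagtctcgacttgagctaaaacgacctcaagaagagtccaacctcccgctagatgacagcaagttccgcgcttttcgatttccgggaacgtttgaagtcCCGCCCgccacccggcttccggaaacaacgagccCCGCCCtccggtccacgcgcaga
Serpinb6e, chr13:33843409-33843658: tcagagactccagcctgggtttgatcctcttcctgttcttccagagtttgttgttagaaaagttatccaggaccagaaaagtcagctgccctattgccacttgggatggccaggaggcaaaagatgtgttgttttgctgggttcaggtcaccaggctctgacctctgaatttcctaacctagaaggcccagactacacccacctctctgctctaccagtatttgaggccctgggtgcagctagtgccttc
The Serpinb6c window held 1 GC box, starting 79 bases before the annotated start, and the Serpinb6a window held 2, starting 57 and 23 bases before it. The Serpinb6e window held none of the 7 motifs. A GC box occurred in 33.0% of 32536 windows of this length, so these matches are common and are a description only. CpG dinucleotides numbered 8 in the Serpinb6c window, 20 in that of Serpinb6a shown and 0 in that of Serpinb6e, against a median of 6 over all windows. The Serpinb6c window lies inside the outermost annotated extent of that gene, so a longer transcript of it starts further upstream. Serpinb6a has another annotated start nearer to Serpinb6c, whose window held 2 CpG, a CCAAT box and no GC box. The Serpinb6a window shown overlaps the annotated extent of Ripk1, a kinase gene of cell death signalling.

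The Serpinb6c signal was higher in both KO lines. Its single probe set, 1451594_s_at, read 878 in KO line 1 and 605 in KO line 2, against 157 in cKO line 1 and 128 in cKO line 2. Both KO lines were high and both cKO lines low, with no overlap, and all 4 values exceeded the background level of their array. The means were 741 ± 193 in KO and 143 ± 20.3 in cKO (SD, n = 2 each), a ratio of 5.20. On the log2 scale used for the fits, log2(signal + 4.79), KO exceeded cKO by 2.32 (SE 0.25), by 2.45 between the lines numbered 1 and by 2.20 between those numbered 2. It was the 1 listed probe set called in limma at an adjusted p under 0.05, where 0.94% of 27022 probe sets were called, with 0.241% of those tested called higher in KO and 0.699% lower. The call ended only in the fit with no variance trend, which called 0 probe sets on the whole array, with 2666 at an unadjusted p under 0.05. Its _s_at type means that transcripts of related Serpinb6 genes may add to this signal.

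**Figure D1:**
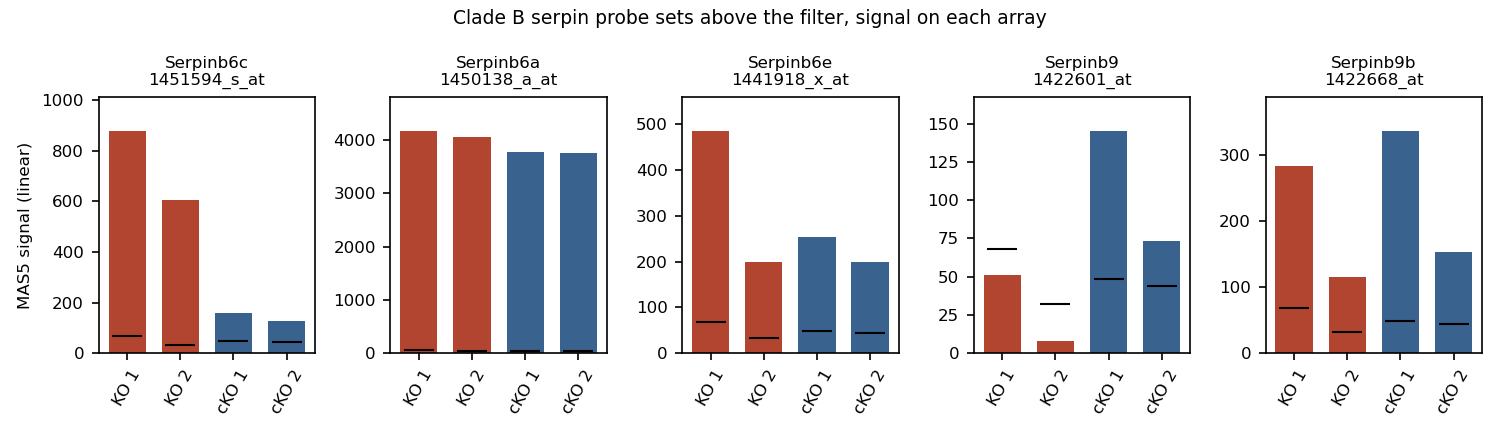
MAS5 signal (linear, from 0) of the 4 listed clade B serpin probe sets above the filter and of Serpinb6e on each array, with the 2 KO lines left of the 2 cKO lines and a black dash at that array's 95th percentile of olfactory receptor probe sets. Serpinb6c reads 878 and 605 in KO against 157 and 128 in cKO, Serpinb6a lies between 3762 and 4176 on all arrays, and both KO bars of Serpinb9 lie under the dash.

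Serpinb6a, the mouse gene closest to human SERPINB6 and an inhibitor of cathepsin G, was bright throughout. Its probe set 1450138_a_at read 4176 and 4054 in the KO lines, against 3780 and 3762 in the cKO lines. The groups did not overlap, but the means differed by a factor of 1.09 (4115 ± 85.8 in KO and 3771 ± 12.7 in cKO, SD, n = 2 each). The log2 difference was 0.13 (SE 0.12) and was not called. The difference on the Serpinb6c probe set was thus not matched in size on that of the adjacent Serpinb6a.

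Serpinb6e, another Serpinb6 gene, was not among the 8. Its probe set 1441918_x_at read 486 and 199 in the KO lines, against 254 and 199 in the cKO lines. KO line 1 alone stood high, and the other 3 arrays lay close together, so the groups overlapped. The log2 difference was 0.46 (SE 0.39, limma adjusted p = 0.779), and without KO line 1 it was -0.17. The _x_at type of this probe set means that other, similar sequences may add to its signal. Serpinb6b, whose mouse product inhibits granzyme A, read 36.8 and 25.2 in KO against 40.8 and 26.7 in cKO, all under the background level of their array. Line 1 read above line 2 in both groups for Serpinb6b, and the groups overlapped.

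Serpinb9, the granzyme B inhibitor, had its 2 probe sets in different ranges. On 1422601_at the signals were 50.8 and 8.24 in the KO lines against 145 and 73.0 in the cKO lines. Both KO values lay below both cKO values and also below the background level of their arrays, while both cKO values lay above it. With the background levels of the 2 KO arrays put in place of their signals, the geometric mean of cKO was 2.20 times that of KO. This is an average over lines, and the signal of cKO line 2 (73.0) lay close to the background level of KO line 1 (68.1). The fitted log2 difference was -2.01 (SE 0.71), was not called, and varied from -0.96 without KO line 2 to -3.05 without KO line 1, where it was called. The second probe set, 1439790_at, lay below the filter at 34.4 and 11.0 in KO against 42.7 and 11.8 in cKO, and its groups overlapped (log2 difference -0.17). Thus the lower signal in KO was seen on 1 of the 2 Serpinb9 probe sets, the brighter one.

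Serpinb9b, a paralogue of Serpinb9 next to it on chromosome 13, went with the line number. Its probe set 1422668_at read 283 and 116 in KO lines 1 and 2, against 337 and 154 in cKO lines 1 and 2. Line 1 exceeded line 2 by 1.25 on the log2 scale in KO and by 1.11 in cKO, whereas KO differed from cKO by -0.32 (SE 0.47), and the groups overlapped. The sign of that difference depended on single lines, at 0.31 without KO line 2 and 0.23 without cKO line 1, but -0.95 without KO line 1 and -0.87 without cKO line 2. All 4 values exceeded the background level, so Serpinb9b was measured in every line.

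**Figure D2:**
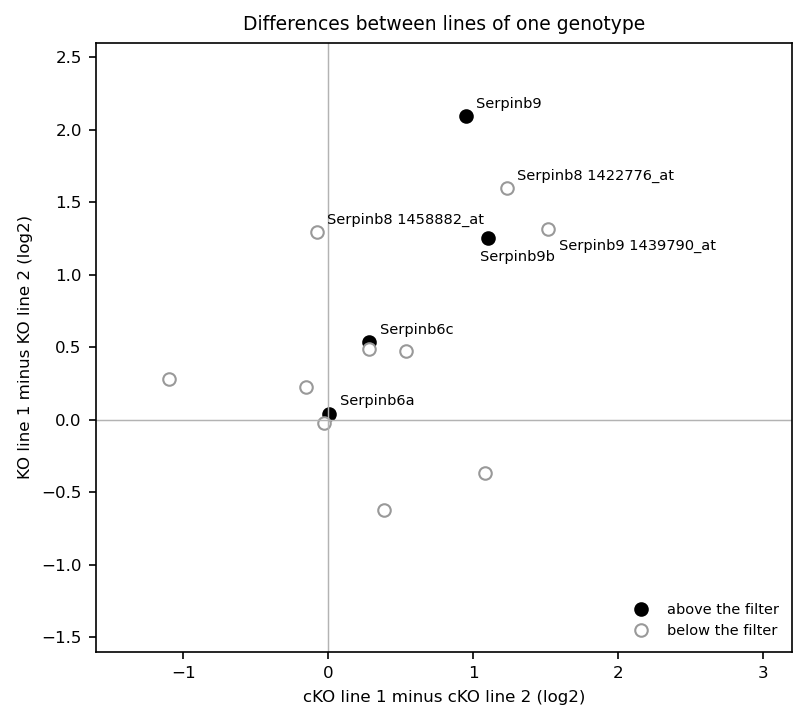
Log2 difference between lines 1 and 2 of the cKO group (horizontal) and of the KO group (vertical) for the 14 listed serpin probe sets, with filled points above the filter and open points below it. Serpinb9b lies at 1.11 and 1.25 and Serpinb9 at 0.95 and 2.09, while Serpinb6a lies near 0 on both axes.

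The order of line 1 above line 2 was not particular to the serpins. It held in both groups for 8 of the 14 probe sets, all 4 above the filter and 4 of the 10 below it. Over the array it held for 43.9% of all probe sets (44.0% of those above the filter and 43.8% of those below it). The line numbers are names in the labels and do not state a shared origin. Serpinb8 1422776_at had the same order, with 16.4 and 2.20 in KO against 57.4 and 21.7 in cKO. Its cKO line 1 value was its only one above the background level.

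The remaining serpins were near background. Serpinb8, an inhibitor of furin in human cells, had a second probe set, 1458882_at, at 20.6 and 5.56 in KO against 3.23 and 3.69 in cKO. The first Serpinb8 probe set was lower in KO (log2 difference -1.74, SE 0.71 in a fit with no filter) and the second higher (0.98, SE 0.53). The 2 thus gave opposite signs, and all their signals lay under the background level except that of the first in cKO line 1. Serpinb5 (maspin), an epithelial member that does not inhibit proteases, was read by 4 probe sets. The brightest, 1421752_a_at, gave 18.4 and 11.7 in KO against 35.1 and 28.1 in cKO. The next, 1424623_at, gave 9.15 and 7.12 in KO against 14.5 and 16.6 in cKO. Both KO values of these probe sets lay under both cKO values, but all lay under the background level. The 2 _x_at probe sets of Serpinb5 stayed under 7 on every array. Serpinb1a, whose product inhibits neutrophil elastase, cathepsin G and proteinase 3, stayed under 9 on every array on both of its probe sets.

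**Figure D3:**
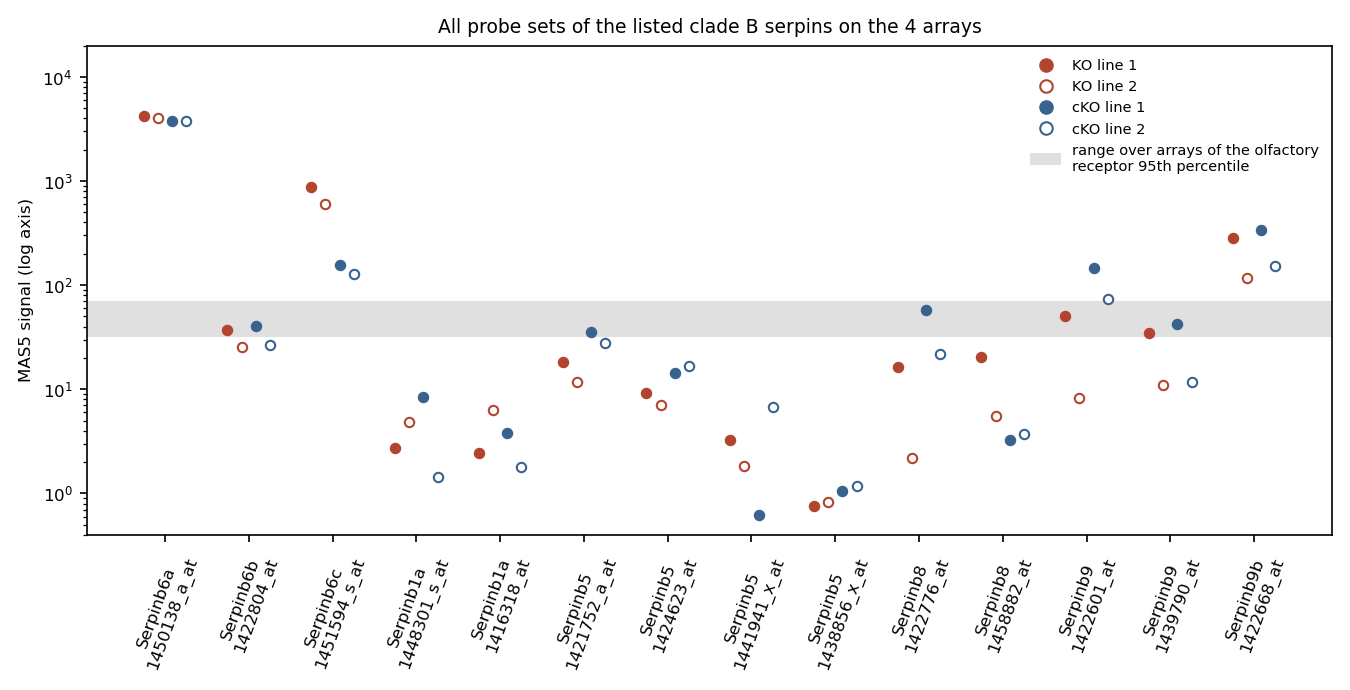
MAS5 signal (log axis) of all 14 probe sets of the 8 listed serpins in the 2 KO lines (left of each cluster) and the 2 cKO lines, with a grey band over the range of the olfactory receptor 95th percentile across arrays, from 32.3 to 68.1. Serpinb6a, Serpinb6c and Serpinb9b lie above the band on all arrays, and the 10 probe sets below the filter read 57.4 at most.

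Over the 14 probe sets, both KO values lay above both cKO values for 3 and below them for 5, and the groups overlapped for 6. Of all probe sets on the array, 20.9% lay above and 15.4% below in this way (36.3% in either direction), and since the genes were chosen with this contrast known nothing is read from the count. The log2 difference was above 0 for 4 probe sets and below 0 for 10, with a median of -0.11, against a median of 0.05 over all probe sets. Of the 8 whose groups did not overlap, 3 were above the filter, namely Serpinb6c, Serpinb6a and Serpinb9, and only that of Serpinb6c was called. Above the filter, the groups did not overlap for 39.5% of all probe sets, with KO above for 21.8% and below for 17.7%.

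**Figure D4:**
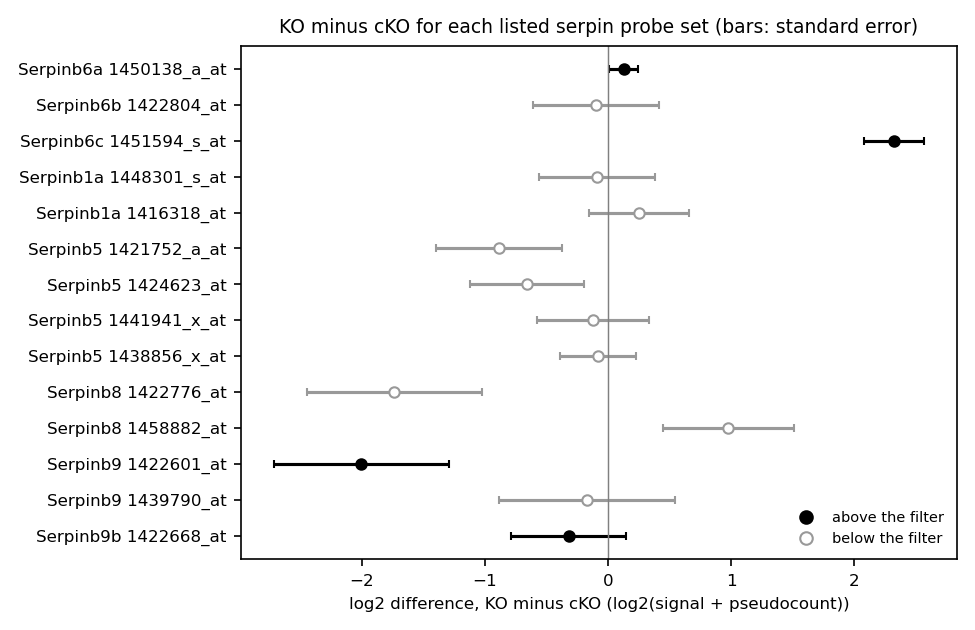
Log2 difference, KO minus cKO, with its standard error from limma, for the 14 listed serpin probe sets, filled where above the filter and open where below it (errors of the latter from a fit without a filter). Serpinb6c lies at 2.32 and Serpinb9 1422601_at at -2.01, and the 2 probe sets of Serpinb8 lie on opposite sides of 0.

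The other clade B serpins on the array were almost all near background. They were 10 genes with 12 probe sets, of which only that of Serpinb6e lay above the filter. The 11 others read between 2.55 and 39.8, among them those of Serpinb2, the plasminogen activator inhibitor 2 gene, and of Serpinb9c and Serpinb9d. One further probe set names 4 clade B genes, none of them listed, and was left out by the rule. Its signals ran from 20.5 to 42.9.

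Among serpins of other clades, 9 of 30 probe sets were tested, for 6 genes. Of these 0 were called higher and 2 lower, both of Serpinh1, the collagen chaperone HSP47, with a median log2 difference of 0.16 over the 9, against 0.04 over all probe sets tested. Serpinh1 1450843_a_at read 766 and 632 in KO against 2697 and 1613 in cKO (log2 difference -1.58, SE 0.25, limma adjusted p = 0.0357). Its second probe set, 1456733_x_at, read 478 and 334 in KO against 1468 and 1071 in cKO (-1.64, adjusted p = 0.0283). Both probe sets fell in KO, with both KO lines under both cKO lines, whereas Serpinb6c stood higher there. Both calls ended in the fits with no filter and with no variance trend, and that of 1450843_a_at also ended with quantile normalization. No other serpin passed, and at an unadjusted p under 0.05 the list had 3 of its 9 probe sets, all lower in KO, where all probe sets tested had 10.5% (2849 of 27022).

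Markers of feeder fibroblasts were lower in KO, as the Serpinh1 signal and that of the brighter Serpinb9 probe set were. Each marker gene of this and the other cell types was read on 1 probe set only. Of 9 fibroblast markers measured, 6 had both KO values below both cKO values and 0 had them above. Over all probe sets 15.4% lay below and 20.9% above in this way, and of those above the filter 17.7% and 21.8%. The summed signal of the 9 fibroblast markers was 1243 and 1251 in KO lines 1 and 2 against 3355 and 2204 in cKO lines 1 and 2. Of these markers 1, Col5a1, was called. Col1a1, a fibrillar collagen, read 135 and 107 in KO against 719 and 312 in cKO, and Lum, which encodes lumican, stayed under the background level throughout. The Serpinb6c signal differed the opposite way, as did the summed signal of the 8 stem cell markers, at 87946 and 80538 in KO against 76130 and 75010 in cKO. Sox2, Zfp42 and Esrrb had both KO values above both cKO values, Utf1 had them below, and none of the 8 was called. The summed signal of 8 epithelial markers was 14865 and 13216 in KO against 27809 and 23979 in cKO. That of 8 primitive endoderm markers was 620 and 363 in KO against 1116 and 728 in cKO. Without Dab2, the brightest of them, it was 398 and 194 in KO against 497 and 329 in cKO, and the groups overlapped. The 7 leukocyte markers summed to 1915 and 1763 in KO against 2978 and 1772 in cKO. Without Lyz2, the brightest, the order was reversed, at 1030 and 1223 in KO against 831 and 883 in cKO. Of the 2 leukocyte markers above the filter, Lyz2 had both KO values below both cKO values (885 and 541 in KO against 2147 and 889 in cKO) and Cd68 had them above (920 and 1170 in KO against 720 and 817 in cKO). Among the epithelial markers the keratin genes Krt8, Krt18 and Krt19 were called lower and Krt17 higher. The 7 trophoblast markers summed to 2808 and 1860 in KO against 2055 and 1406 in cKO, most of it from Tfap2c, and without it the other 6 summed to 622 and 449 in KO against 709 and 640 in cKO. In bulk RNA fewer cells of a type and less RNA per cell cannot be told apart, and the part of such cells in the serpin values was not tested.

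Proteases that clade B serpins are known to inhibit were measured from a list of 19 genes. Of 26 probe sets 14 were tested, for 9 genes, and limma called 0, with 0 at an unadjusted p under 0.05 and a median log2 difference of -0.19. The smallest p-values were those of Plat and Ctss. Plat, the tissue plasminogen activator, read 53.6 and 35.3 in KO against 149 and 64.5 in cKO (log2 difference -1.10, adjusted p = 0.474), with KO line 1 under its background level. A second Plat probe set, under background on all arrays, had the opposite sign, at 47.5 and 30.4 in KO against 14.3 and 10.1 in cKO. Ctss, the lysosomal protease cathepsin S, read 240 and 191 in KO against 528 and 249 in cKO (-0.75, adjusted p = 0.507). The targets of Serpinb9 and Serpinb6b, Gzmb and Gzma, had signals under 22 on every array, below the background level. Ctsg, the target of Serpinb6a, was under it as well.

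Ordered by their lowest RefSeq coordinate, no other kind of protein-coding gene lies between the listed serpins on chromosome 13, or between Serpinb5 and Serpinb8 on chromosome 1, although Nqo2 lies within the annotated extent of Serpinb6a. The 10 nearest genes on each side of both groups gave 40 neighbours, of which 29 were tested with 52 probe sets. Of these 0 were called higher and 1 lower, with a median log2 difference of 0.07. At an unadjusted p under 0.05 there were 6 of the 52, near the 10.5% of all probe sets tested, with 5 higher in KO and 1 lower. The 5, named after their values were seen, were those of Tfcp2l1, Tubb2a, Zcchc2 and Gli2 (2 probe sets), with log2 differences from 0.70 to 1.24. The 1 that fell was Pxdc1 on chromosome 13. It read 143 and 97.8 in KO against 402 and 323 in cKO (log2 difference -1.57, limma adjusted p = 0.0424). Its call ended without KO line 2, without cKO line 1, with no filter and with no variance trend. Nqo2, a quinone reductase gene named for its position, read 713 and 930 in KO against 557 and 766 in cKO on its brightest probe set (0.32, adjusted p = 0.736). The difference of Serpinb6c was thus not matched in size on the probe sets of either flanking serpin or of this neighbour.

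The 5 genes whose probe set lay nearest to Serpinb6c in profile, by the Euclidean distance between mean-centred log2 values over the 4 arrays, were Mobp, Fam167a, Gjb1, AI662270 and Cd8a, at distances of 0.29, 0.33, 0.44, 0.49 and 0.49. Mobp, a gene of myelin, read 163 and 117 in KO against 20.5 and 17.1 in cKO, where it was under background. Fam167a read 568 and 376 in KO against 114 and 106 in cKO (log2 difference 2.02). Gjb1, which encodes connexin 32, read 319 and 213 in KO against 80.0 and 46.5 in cKO. AI662270 read 305 and 251 in KO against 81.6 and 63.6 in cKO. Cd8a, a T cell co-receptor, read 97.2 and 56.7 in KO against 21.0 and 12.9 in cKO, where it too was under background. It was the 1 of the 5 that was not called. In each of the 5 genes both KO lines stood above both cKO lines and line 1 above line 2, which is what the measure selects.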

How the data were processed

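RNA from 4 mouse embryonic stem cell lines was read on 1-colour Affymetrix Mouse Genome 430 2.0 arrays, 1 for each line. The authors deposited intensity values, 1 signal per probe set. The software was MAS5 according to the labels, per the submitters' processing notes, with settings not given in the sources used here. Each array had the same mean signal after 2% was trimmed from each end, and detection calls were not used here. Genes came from the platform annotation, with current symbols through Entrez identifiers in a RefSeq table (GRCm38.p6). Of 45101 probe sets, 64 controls were left out, 34945 named 1 gene, 932 several and 9160 none.

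Signals were converted to log2(signal + 4.79), the 10th percentile of all values, which understates changes of dim probe sets. A filter removed the dimmest 40% (18015 probe sets) by mean signal, and 27022 were tested, each on its own, with limma 3.58.1 in R 4.3.3 (lmFit, eBayes with a variance trend) and Benjamini-Hochberg adjustment over all of them, with 6.09 prior degrees of freedom added to the 2 residual ones. Members below the filter have values from a fit with no filter. The procedure was tested on simulated data.

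The members, lists and tests were chosen with earlier results of these data known. Genes named are every listed serpin, Kdm6a, other clade B serpins above the filter, called members of each list (at most 4, or the 2 of smallest p) and the 5 nearest profiles. Other list and marker genes, Nqo2, Gzma, Gzmb and Ctsg are named as examples outside that rule. Alternatives were other pseudocounts, filters, scalings, variance models, thresholds and probe set choices, the line number as a block, and each array left out in turn, when the lone line was assumed to vary like the other group's lines. Figures were drawn with matplotlib 3.10.9 and tables handled with pandas 2.3.3 in Python 3.11.15.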

Additional observations from a re-analysis of the deposited data

How the results depend on the processing

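Serpinb6c was listed with its KO against cKO difference on these arrays known, so refits of the same values add no support to its call. They show only how far the result depends on the settings. The log2 difference of Serpinb6c stayed between 2.05 and 2.59 with any 1 array left out. With all arrays kept, Serpinb6c was called in every alternative fit except the one with no variance trend. That fit called 0 probe sets in all, 0 of the listed serpins, 0 of the other clades and 0 of the neighbours, with 2666 at an unadjusted p under 0.05 in limma. With no filter 117 probe sets were called against 254, with 0 of the other clades and 0 of the neighbours. Both the number of tests and the variance fit differ there, and the cause was not tested. At an adjusted p under 0.10 there were 487, with 2 of the neighbours. Quantile normalization left 1 of the other clades, and centring on the median moved Serpinb6a to 0.08.

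With 1 array left out the total ran from 302 to 503, the highest without KO line 1, the listed serpins from 1 to 2 (the second being Serpinb9 without KO line 1) and the neighbours from 1 to 3. The log2 difference then ran from 0.10 to 0.15 for Serpinb6a, from -3.05 to -0.96 for Serpinb9 and from -0.95 to 0.31 for Serpinb9b, and from -0.17 (without KO line 1, a reversal) to 1.10 for Serpinb6e. The cause was not tested.

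With the line number as a replicate block, 1816 probe sets were called, 2 of them listed serpins (Serpinb6c and Serpinb9) and 7 neighbours. The labels do not pair the lines, although deviations from the group mean of the lines numbered 1 correlated across probe sets (Pearson's r = 0.39), which are not independent replicates. Dim signals limit 10 of the 14 serpin probe sets, and 2 lines per group limit all.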
